A study of Mus musculus with 16 samples.

Results

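Genes whose response to loss of Batf3 differed between 48 h and 72 h of culture were sought in RNA sequencing of activated mouse CD8 T cells. For each gene, the log2 difference between Batf3 ko and wild-type cells at 72 h minus the same difference at 48 h, called the interaction here, was tested. A negative interaction means that ko cells stood lower, relative to wild-type cells, at 72 h than at 48 h. Of 15197 genes tested, 853 (5.61%) had a called interaction, one past the threshold of an edgeR quasi-likelihood test with a Benjamini-Hochberg adjusted p below 0.05. Counts of genes above and below 0 are of called interactions throughout. The interaction was above 0 in 316 (2.08% of the tested genes) and below 0 in 537 (3.53%). It reached 2-fold in 28 of the former and 41 of the latter. At the edge of the threshold, Nampt lay inside (0.39, adjusted p = 0.05 after rounding) and Spag5 outside (-0.30, adjusted p = 0.0501).

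The libraries came from spleen cells of C57BL/6 mice, either wild type or Batf3-/- (ko), enriched for CD8 T cells. All 4 groups, ko and wild type at each time, shared the same stimulus: plate-bound anti-CD3e and anti-CD28 at 1 µg/ml each, in medium with IL-15 at 50 ng/ml. Each group held 4 libraries, 16 in all, which the series text calls technical replicates, so a p-value here reflects how far such libraries scatter, and says nothing of variation from mouse to mouse. The number of mice behind a group is not given, and no label restricts the deletion to a cell type, so the ko cells also developed in an animal without Batf3.

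Library totals ran from 29375818 to 39241169 counts. In every library Cd3e, Cd3d, Cd8a and Cd8b1 each had at least 89.3 CPM (TMM-scaled read counts, relative to library size). Of 21 macrophage, monocyte and granulocyte markers 18 stayed under 1 CPM in every library. So did 9 of 13 B cell markers and 7 of 14 dendritic cell markers. Only 3 of 18 NK and gamma delta markers and 3 of 7 CD4 and regulatory T cell markers did. Ighm, on the B cell list, had 215 to 344 CPM. Fcgr3, on the macrophage list, averaged 9.39 CPM in ko and 0.652 CPM in wild-type cells at 72 h. The part of other cells in the values was not tested. Batf3 itself had 26.9 to 86.2 CPM in the wild-type libraries and 0 to 0.389 CPM in the ko libraries, so its own interaction (0.86, SE 0.91) has no meaning at 0 to 11 ko reads. Libraries are written by genotype, time and number, such as ko_48h_4 for the ko library numbered 4 at 48 h. That library and wt_72h_4 stood apart from their groups, with a root mean square deviation of 0.177 and 0.164 on the log2 scale against 0.0848 to 0.125 in the others. Across 9284 expressed genes, which are not independent replicates, exon length had a Spearman correlation of -0.398 with the genotype effect at 48 h, -0.348 with that at 72 h and -0.16 with the interaction; the part of length in any call was tested only through length offsets, given in the closing section.

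Batf3 encodes a small basic leucine zipper protein of the AP-1 group. It has no activation domain of its own and binds DNA as a dimer with JUN proteins, often beside IRF4 or IRF8 in T cells and dendritic cells. After a T cell receptor signal, immediate early genes of the EGR and NR4A families and AP-1 come on within hours, cells then divide and make cytokines and granule enzymes, and the programme fades as the signal ends. The transcription factor ATF4 is a separate branch: it is translated when amino acids run short or the endoplasmic reticulum is stressed, and it drives genes for amino acid synthesis and import.

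The sequences shown are promoters of genes from the ATF4 target list and of Gbp2, whose genotype effect changed sign. Each is the 250 bases before the start site in the RefSeq promoter table of GRCm38.p6, written 5′ to 3′ on the gene's strand. Capitals in the ATF4 targets mark TGATGNAA on either strand, the composite site of CHOP and ATF4. In Gbp2 they mark the core of the interferon-stimulated response element and the AP-1 site TGANTCA, each searched on both strands. No marked ATF4 site overlapped an AP-1 match. Asns lies at chr6:7693210-7693459 (minus strand), Chac1 at chr2:119350992-119351241 (plus strand), Nupr1 at chr7:126625471-126625720 (minus strand), Slc7a11 at chr3:50443614-50443863 (minus strand) and Gbp2 at chr3:142620413-142620662 (plus strand).
Asns: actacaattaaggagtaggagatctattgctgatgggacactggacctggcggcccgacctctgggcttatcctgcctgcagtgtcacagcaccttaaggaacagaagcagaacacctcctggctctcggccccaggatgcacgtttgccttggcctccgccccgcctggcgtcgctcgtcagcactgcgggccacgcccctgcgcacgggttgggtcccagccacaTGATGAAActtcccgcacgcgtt
Chac1: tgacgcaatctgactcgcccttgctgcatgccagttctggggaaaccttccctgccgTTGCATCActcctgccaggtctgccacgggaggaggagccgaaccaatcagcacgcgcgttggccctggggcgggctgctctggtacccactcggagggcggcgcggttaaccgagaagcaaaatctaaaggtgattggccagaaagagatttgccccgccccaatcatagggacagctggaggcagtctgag
Nupr1: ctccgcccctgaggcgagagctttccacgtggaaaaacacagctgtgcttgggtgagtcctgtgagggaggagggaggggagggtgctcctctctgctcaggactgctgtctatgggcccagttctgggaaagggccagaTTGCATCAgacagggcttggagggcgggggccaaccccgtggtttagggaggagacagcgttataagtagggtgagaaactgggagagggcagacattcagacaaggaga
Slc7a11: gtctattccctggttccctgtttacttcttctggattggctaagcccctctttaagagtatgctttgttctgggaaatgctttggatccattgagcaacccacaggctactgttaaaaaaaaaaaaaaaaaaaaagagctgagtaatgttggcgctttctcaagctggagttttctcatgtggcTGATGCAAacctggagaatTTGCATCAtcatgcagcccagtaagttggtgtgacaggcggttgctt
Gbp2: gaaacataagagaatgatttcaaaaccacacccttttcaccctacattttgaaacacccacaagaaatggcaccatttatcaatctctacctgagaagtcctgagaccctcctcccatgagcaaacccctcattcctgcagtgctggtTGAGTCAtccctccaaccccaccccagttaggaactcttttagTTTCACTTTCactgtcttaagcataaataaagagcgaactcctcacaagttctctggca

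The table held promoters for 645 of the 853 genes. TGATGNAA was in 4 of the 13 called ATF4 targets with a promoter (30.8%), in 3.1% of all matched interaction genes, in 1.97% of tested genes and in 3.53% of all 27025 promoters. The AP-1 site was in 35 of the 645 (5.43%), against 4.24% of tested genes and 6.87% of all promoters. By class it was in 5.56% of genes that appeared higher in ko cells and in 3.91% of those that appeared lower. It was in 4 of the 20 promoters of genes with a growing effect above 0 and 2 of the 20 with one below, where few promoters stand behind each share. The interferon-stimulated core was in 3.41% of the 645, 2.78% of tested genes and 3.04% of all promoters. A match is a string of letters and not evidence that a factor bound there.

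The 853 genes were sorted by the genotype effect at each time. The ko and wild-type cells differed in 1075 genes at 48 h (7.07% of those tested; 4.41% higher and 2.66% lower in ko cells) and in 5526 at 72 h (36.4%; 16.9% higher and 19.5% lower). The effect appeared, passing the threshold at 72 h and not at 48 h, in 731 genes, 266 of them with more RNA in ko cells at 72 h and 465 with less. It grew in 52 genes (27 higher and 25 lower), passing at both times with the larger size at 72 h. It shrank in 38 (at 48 h ko cells were higher in 28 and lower in 10), turned from one sign to the other in 8, and passed at neither time in 24. Appearing is a statement about thresholds: 301 of the 731 had an estimate of the opposite sign at 48 h that did not pass. The median effect of the appearing genes went from 0.0188 at 48 h to 0.4845 at 72 h for those that were higher and from -0.0379 to -0.4915 for those that were lower.

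The counts changed with scaling and when single libraries were left out. With library-size scaling, 183 interactions were above 0 and 1231 below, against 316 and 537. Without wt_48h_1 or wt_48h_4, ko_48h_3, wt_72h_3 or ko_72h_3 the total fell to 518, 488, 474, 446 and 514. Without ko_72h_3 the split was 281 above and 233 below 0. None of the 853 interactions had the opposite sign in any of the 26 alternative fits that held the gene. These fits reuse most of the same libraries, and called interactions lie away from 0, so a kept sign says little.

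**Figure D1:**
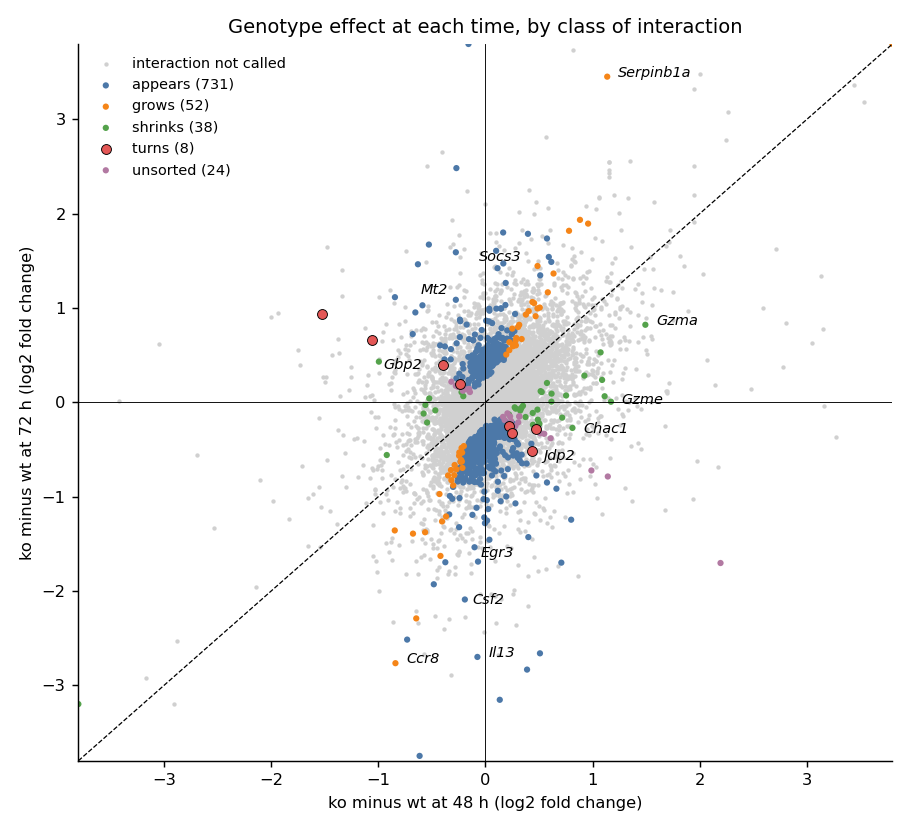
Log2 difference between ko and wild-type cells at 48 h (horizontal) and 72 h (vertical) for each tested gene, coloured by class; the dashed line marks equal effects. Appearing genes (731) lie along the vertical axis, growing genes (52) lie farther from the horizontal axis than the dashed line, and the 8 turning genes lie at upper left and lower right. Called genes beyond 3.8 (3 of them) are drawn at the edge and 16 uncalled genes beyond it, Batf3 among them, are not drawn.

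The interaction genes were mostly genes that changed with time in both genotypes and changed more in ko cells. From 48 h to 72 h, 589 of the 853 (69.1%) moved the same way in both genotypes by estimate and farther in ko cells, 96 (11.3%) moved the same way and less far, and 168 (19.7%) moved in opposite directions. Over all tested genes these shares were 55.2%, 32.5% and 12.3%. The test of time passed in 63.6% of all tested genes in wild-type cells (33.6% rose and 29.9% fell) and in 68.0% in ko cells (34.4% rose and 33.6% fell). Among the 537 genes with an interaction below 0, 296 fell with time in both genotypes, 100 fell in ko cells without passing in wild-type cells, 62 rose in wild-type cells without passing in ko cells, 51 rose in both and 28 rose in wild-type and fell in ko cells. Among the 316 above 0, 189 rose in both, 73 rose in ko cells without passing in wild-type cells, 26 fell in wild-type cells without passing in ko cells, 19 fell in wild-type and rose in ko cells, and 9 fell in both. The time changes and the interaction rest on the same 16 libraries, so these counts describe the genes and test nothing further.

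**Figure D2:**
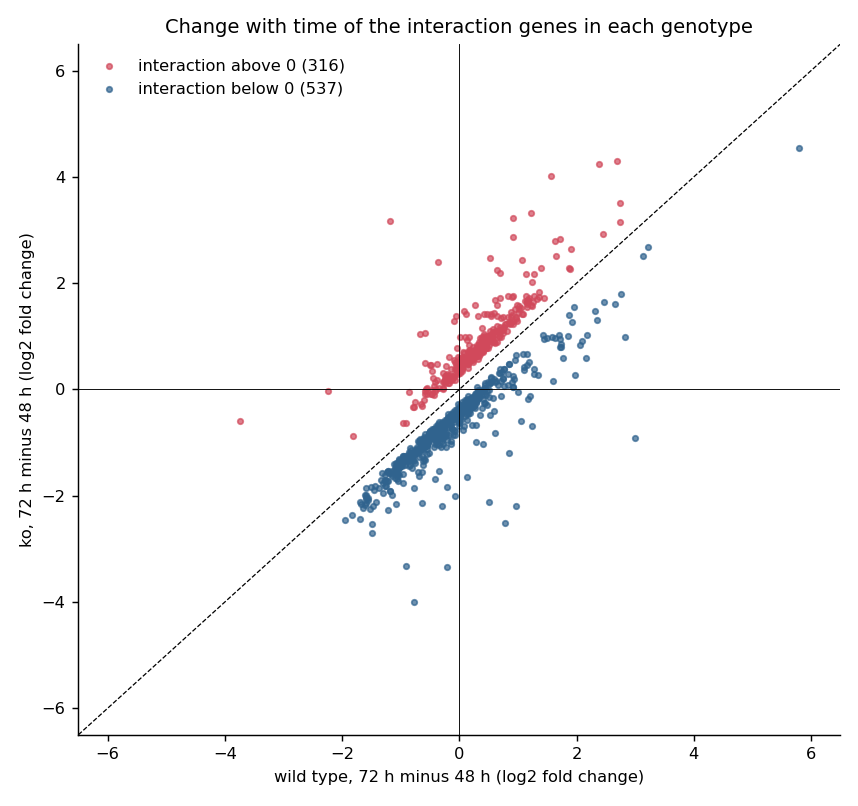
Log2 change from 48 h to 72 h in wild-type cells (horizontal) and ko cells (vertical) for the 853 interaction genes; the dashed line marks equal change. Genes with an interaction above 0 (316) lie above the line, most of them at upper right, and genes with an interaction below 0 (537) lie under it, most at lower left.

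Of 10 tested cytokine, receptor and regulator genes of type 2 immunity 4 had a called interaction below 0 and 0 above, against 3.53% and 2.08% of all tested genes, and the list's median effect went from -0.34 at 48 h to -1.27 at 72 h. Il13, a type 2 cytokine (ENSMUSG00000020383, chr11:53631324-53634702), did not separate the genotypes at 48 h. Its wild-type libraries then had 4.88, 5.33, 6.70 and 6.14 CPM and its ko libraries 5.42, 4.63, 6.18 and 5.65 CPM. At 72 h the wild-type libraries had 6.02, 6.90, 9.56 and 10.2 CPM and the ko libraries 1.20, 1.08, 0.885 and 1.83 CPM, so every ko library lay below every wild-type library. The log2 effect went from -0.07 (SE 0.17) to -2.70 (SE 0.20), an interaction of -2.62 (SE 0.27, edgeR adjusted p = 3.58e-06).

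Ccr8, a chemokine receptor of skin-homing and type 2 T cells (ENSMUSG00000042262, chr9:120092114-120094906), was already lower in ko cells at 48 h, and the gap grew. Wild-type libraries held 8.24, 8.37, 10.1 and 9.47 CPM at 48 h and 8.27, 7.59, 9.43 and 8.88 CPM at 72 h, with no change that passed. The ko libraries held 4.60, 6.00, 5.38 and 4.19 CPM at 48 h and 1.07, 0.993, 1.42 and 1.55 CPM at 72 h. The groups did not overlap at either time. The interaction was -1.93 (SE 0.21, edgeR adjusted p = 7.11e-06). Ccr4, the related receptor for CCL17 and CCL22, went from -0.40 to -1.26 (interaction -0.86, SE 0.13). Il3, a haematopoietic cytokine, went from 0.00 to -1.28 at a level of 0.566 to 3.75 CPM, and its call was lost without ko_72h_3 (edgeR adjusted p = 0.0541). The other tested members, Il4, Il10, Il24, Il1rl1, Il4ra and Gata3, had no interaction past the threshold.

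Among 22 tested effector cytokines and chemokines 3 had a called interaction below 0 and 0 above. The called share was 13.6%, against 5.61% of all tested genes. Csf2, the gene of the myeloid growth factor GM-CSF, lies beside Il3 on chromosome 11 (ENSMUSG00000018916, chr11:54247271-54249667). It had 6.12, 7.45, 7.76 and 6.14 CPM in wild-type and 5.42, 5.24, 6.78 and 6.57 CPM in ko libraries at 48 h. At 72 h it had 3.62, 4.42, 6.09 and 8.28 CPM against 1.35, 1.47, 1.17 and 1.23 CPM. The wild-type libraries at 72 h spread more than 2-fold, yet all lay above the ko libraries. Its interaction was -1.90 (SE 0.28, edgeR adjusted p = 0.000325). Xcl1, a chemokine that draws in cross-presenting dendritic cells, rose with time from 25.4 ± 4.38 to 64.5 ± 13.9 CPM in wild-type cells (SD, n = 4 each) and stood at 23.3 ± 1.38 and 28.2 ± 1.97 CPM in ko cells, a time change that did not pass there. Its interaction was -1.07 (SE 0.17). Tnfsf14, the TNF family ligand LIGHT, went from 0.12 to -0.84 (interaction -0.96, SE 0.15). Ifng, Tnf, Il2, Ccl3, Ccl4 and Ccl5 were among the 19 that did not pass, Ifng at -0.61 (SE 0.31, edgeR adjusted p = 0.282). With no filter Ifng did pass (edgeR adjusted p = 5.86e-07) and the list had 7 calls below 0, and in DESeq2 it had 5.

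**Figure D3:**
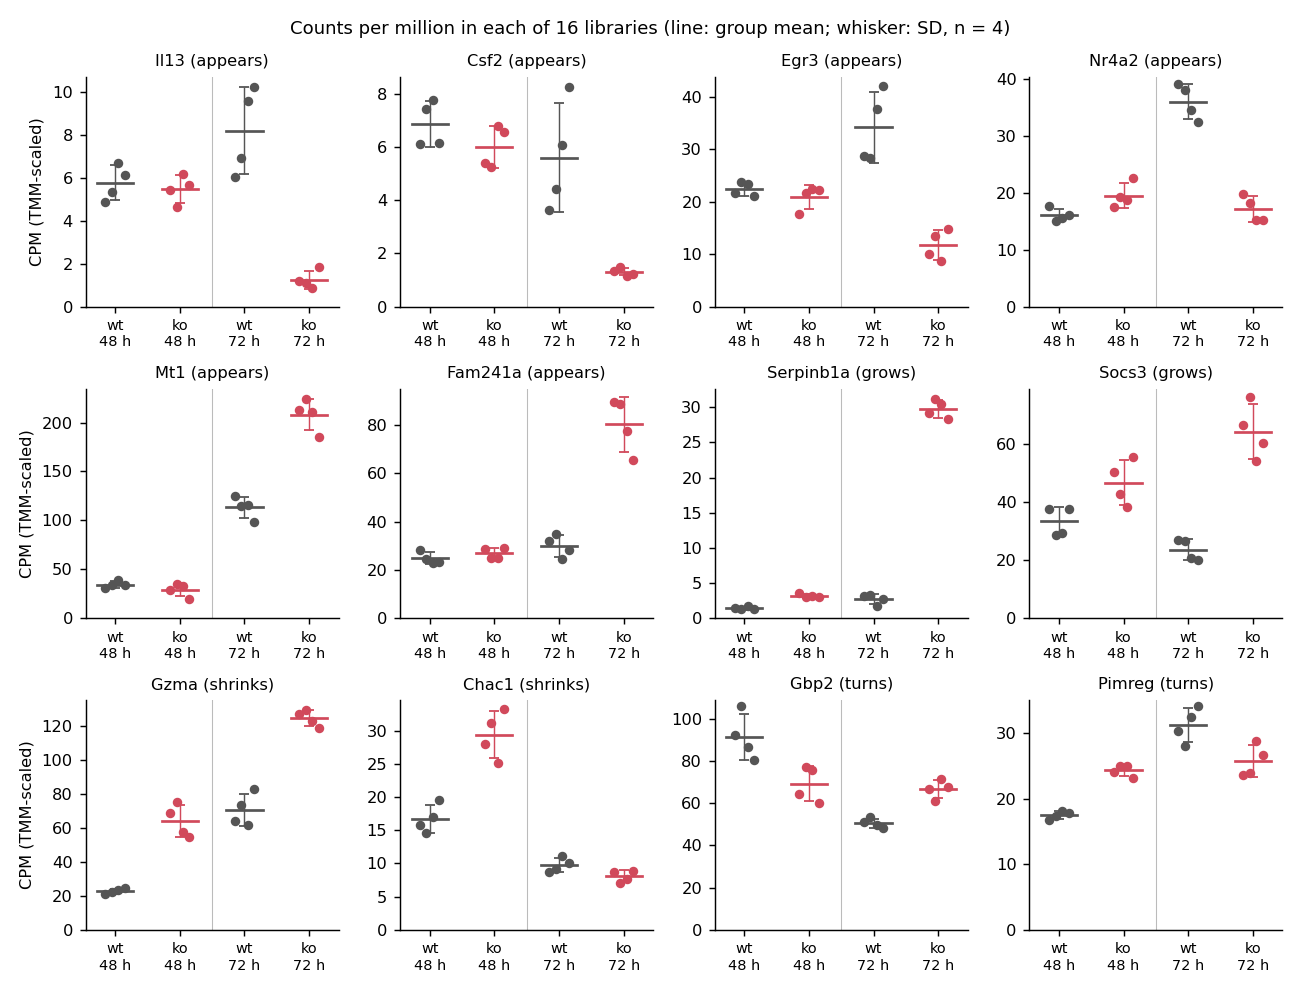
CPM (vertical, from 0) of 12 genes in each of the 16 libraries; points are libraries, lines group means and whiskers the SD (n = 4). Il13, Csf2, Egr3 and Nr4a2 overlap at 48 h and part at 72 h with ko lower, Mt1 and Fam241a part with ko higher, and Gbp2 and Pimreg change the order of the genotypes between the times.

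Of 8 tested NR4A and EGR genes, early response genes of T cell receptor signalling, 4 had a called interaction below 0 and 0 above. The called share was 50%, against 5.61% of all tested genes, and the list's median effect went from -0.05 to -0.89. Egr3, a zinc finger factor induced through calcium and NFAT (ENSMUSG00000033730, chr14:70077203-70082614), had 21.8, 23.8, 23.4 and 21 CPM in wild-type and 17.6, 21.6, 22.4 and 22.2 CPM in ko libraries at 48 h. It rose in wild-type cells to 28.8, 28.3, 37.7 and 42.1 CPM at 72 h and fell in ko cells to 10.1, 13.5, 8.64 and 14.8 CPM. The interaction was -1.43 (SE 0.20, edgeR adjusted p = 0.000334). The groups overlapped at 48 h and not at 72 h.

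Nr4a2, an orphan nuclear receptor, had 17.6, 15, 15.5 and 16.1 CPM in wild-type and 17.6, 19.2, 18.7 and 22.7 CPM in ko libraries at 48 h (ENSMUSG00000026826, chr2:57106830-57124003). At 72 h it had risen in wild-type cells to 39.1, 38.1, 34.5 and 32.5 CPM, while ko libraries had 19.9, 18.3, 15.1 and 15.2 CPM, a time change that did not pass. Its interaction was -1.35 (SE 0.14, edgeR adjusted p = 3.58e-06). Nr4a3 was lower in ko cells at both times and the gap grew, from 155 ± 20.8 against 229 ± 2.04 CPM at 48 h to 45.4 ± 3.27 against 118 ± 3.89 CPM at 72 h (SD, n = 4 each; interaction -0.81, SE 0.10). Nr4a1, also called Nur77, went from -0.04 to -0.71 (interaction -0.67, SE 0.10). Egr1, Egr2, Nab1 and Nab2 did not pass. Without ko_72h_4 the list had 7 genes below 0.

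The list of T cell receptor signalling genes (30 tested) had a called share of 3.33%, against 5.61% of all genes. Dusp5, a phosphatase that acts on ERK, went from 0.14 to -0.47 (interaction -0.60, SE 0.09) and was the 1 called gene of 12 on the ERK feedback list. In the list of AP-1, BATF and IRF factors, 3 of 18 passed (16.7%, against 5.61% of all tested genes). Jdp2, which pairs with JUN, was not on this list and is given with the turning genes. Jun, 1 of the JUN proteins that pair with BATF proteins, was higher in ko cells at 72 h (0.10 to 0.68, interaction 0.58, SE 0.13). Jund (-0.35) and Nfatc1 (-0.39) moved the other way, but Jund was lost in 5 and Nfatc1 in 6 of 25 alternatives. Batf and Irf4 did not pass (0.10, SE 0.09 and -0.13, SE 0.11).

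Penk, which encodes the opioid precursor proenkephalin, had 9.34 ± 0.278 CPM in wild-type and 9.44 ± 0.939 in ko cells at 48 h, and 11.3 ± 1.8 against 4.75 ± 0.571 at 72 h (SD, n = 4 each; interaction -1.27, SE 0.17). Slc2a6, a hexose transporter of the GLUT family, had 12.1 ± 0.635 against 11.5 ± 1.69 CPM at 48 h and 10.4 ± 1.1 against 3.24 ± 1.17 CPM at 72 h (SD, n = 4 each; interaction -1.62, SE 0.23). Epas1, which encodes the hypoxia factor HIF-2 alpha, rose with time in both genotypes, but to 26.8 ± 1.77 CPM in wild-type and 12.2 ± 1.97 in ko cells from 5.91 ± 0.87 and 6.02 ± 0.89 (SD, n = 4 each; interaction -1.16, SE 0.18). On the hypoxia list 3 of 19 tested genes were called (15.8%, against 5.61% of all tested genes). Besides Epas1 these were Kdm3a (0.38) and P4ha1 (0.31), both above 0. Each of those 2 lost its call in 11 of 25 alternatives. Ccdc184, a coiled-coil protein gene, went from -0.37 to -1.69. The effect on Rxra, the retinoid X receptor that pairs with many nuclear receptors, grew from -0.42 to -1.63. That on Plxna1, a semaphorin receptor, grew from -0.37 to -1.21, and that on Gtse1, a G2 and S phase protein gene, from -0.30 to -0.88. Of 25 alternatives, Rxra stayed in the growing class in 20, Plxna1 in 16 and Gtse1 in 22. In the others the effect appeared instead.

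Of 25 tested ATF4 target genes of amino acid stress 13 had a called interaction below 0 and 1 above. The called share was 56%, against 5.61% of all tested genes. The list's median effect went from 0.18 at 48 h to -0.23 at 72 h, against 0.01 and -0.02 over all tested genes. The count below 0 changed when different single libraries were left out. It was 4 without ko_72h_3, 6 without wt_72h_3, 7 without wt_48h_1 or wt_48h_4, and 8 without wt_48h_2, wt_72h_1 or wt_72h_2, or ko_72h_2. It was also 8 with the replicate number as a block.

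Chac1, an enzyme that breaks down glutathione and a standard ATF4 and CHOP target (ENSMUSG00000027313, chr2:119351229-119354381), was higher in ko cells at 48 h. It then had 15.8, 14.5, 17 and 19.5 CPM in wild-type and 27.9, 31.2, 25.2 and 33.3 CPM in ko libraries, without overlap. At 72 h the groups overlapped, with 8.77, 9.22, 11.1 and 10.1 CPM against 8.68, 7.10, 7.72 and 8.89 CPM. The effect went from 0.81 (SE 0.10) to -0.27 (SE 0.11), the latter short of the threshold (edgeR adjusted p = 0.0672), for an interaction of -1.08 (SE 0.15, edgeR adjusted p = 0.000294). Its promoter, printed above, holds TTGCATCA, the reverse complement of a TGATGNAA match, with its farther end 193 bases before the start site.

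Enzymes of serine and glycine synthesis had called interactions below 0: Phgdh went from 0.12 to -0.27, Psph from 0.20 to -0.23, Psat1 from 0.00 to -0.28 and Shmt2, the mitochondrial serine hydroxymethyltransferase, from 0.03 to -0.43. Asns, asparagine synthetase, had 219 ± 16.2 CPM in wild-type and 211 ± 8.19 in ko cells at 48 h, and 189 ± 6.4 against 143 ± 2.21 at 72 h (SD, n = 4 each; interaction -0.35, SE 0.08). Aldh18a1, which starts proline synthesis, went from 0.04 to -0.47. The amino acid transporters Slc7a11, Slc7a5 and Slc7a1 had interactions of -0.93, -0.37 and -0.39, and the Slc7a11 call was lost in 7 of 25 alternatives. The secreted glycoprotein gene Stc2 rose with time in both genotypes, from 11 ± 1.44 to 61.2 ± 5.51 CPM in wild-type and from 10.7 ± 1.49 to 33.5 ± 6.32 CPM in ko cells (SD, n = 4 each; interaction -0.83, SE 0.17).

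Nupr1, a small stress-induced chromatin protein gene, was the 1 member with a called interaction above 0. Wild-type libraries had 14.2, 12.4, 14.2 and 15.5 CPM at 48 h and 12.4, 12.9, 9.11 and 12 CPM at 72 h. The ko libraries had 21.6, 21, 17.6 and 24.3 CPM and then 27, 27, 26.3 and 24 CPM, higher than every wild-type library at both times. Its effect grew from 0.58 to 1.17 (interaction 0.58, SE 0.15, edgeR adjusted p = 0.0215), so promoters with the same TGATGNAA string belonged to genes that moved in opposite directions. The factors of the pathway, Atf4, Atf5, Ddit3 (CHOP), Cebpb and Cebpg, did not pass. Trib3, a pseudokinase that holds ATF4 back, and Herpud1, of the ER chaperone and quality control list, were higher in ko cells at 48 h and the difference shrank (interactions -0.37 and -0.53).

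**Figure D4:**
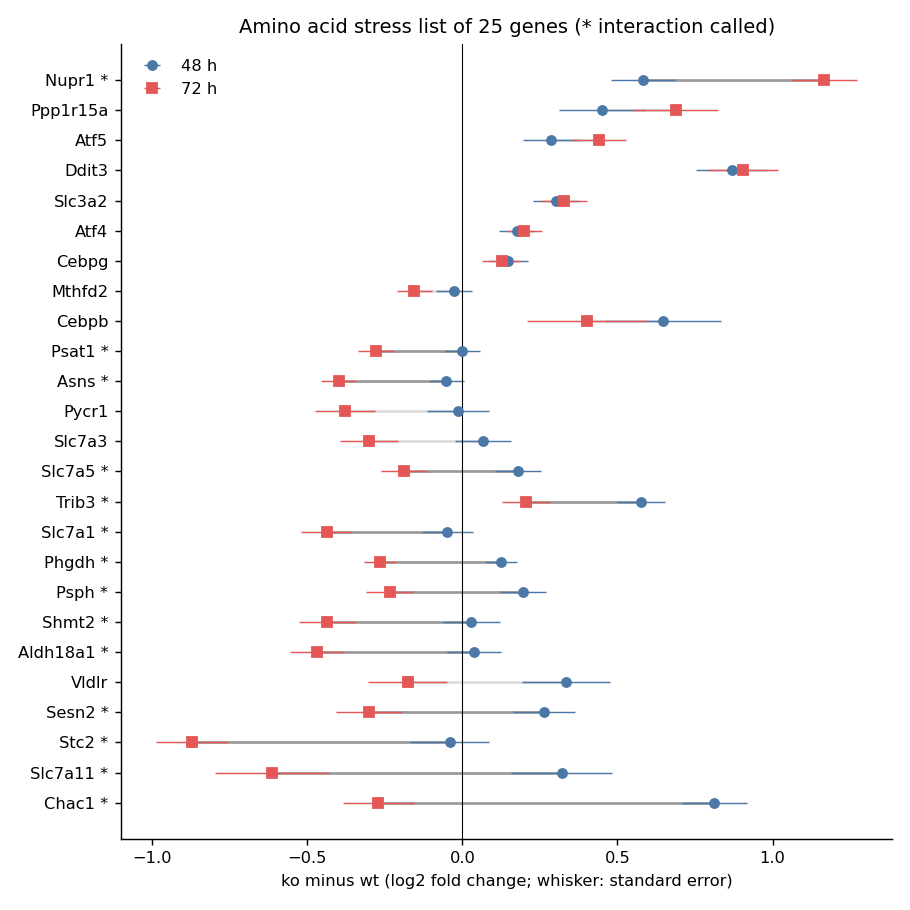
Log2 difference between ko and wild-type cells at 48 h (circles) and 72 h (squares) for the 25 genes of the ATF4 list, ordered by interaction; whiskers are standard errors and stars mark called interactions. In 13 of the 14 starred genes the square lies to the left of the circle, and in Nupr1 it lies to the right.

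Granzyme genes were among those whose effect shrank. Of 21 tested cytotoxic granule genes 4 had a called interaction below 0, all granzymes that were higher in ko cells at 48 h, and 1, Srgn, above 0. The list as a whole had a called share of 23.8%, against 5.61% of all tested genes. Its median interaction was 0.057, with a median effect of 0.30 at 48 h and 0.21 at 72 h. Gzma, granzyme A (ENSMUSG00000023132, chr13:113093825-113100981), had 20.8, 22.5, 23.4 and 24.4 CPM in wild-type and 68.9, 75.1, 57.9 and 54.7 CPM in ko libraries at 48 h. Values at 72 h were 64.1, 73.7, 61.8 and 82.8 CPM against 127, 129.99, 123 and 119 CPM. The ko libraries were higher at both times without overlap, but wild-type cells rose by 1.63 with time and ko cells by 0.96. The effect went from 1.49 to 0.82 (interaction -0.67, SE 0.13, edgeR adjusted p = 0.00364).

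Gzmc, granzyme C (ENSMUSG00000079186, chr14:56231441-56234656), had 28.5, 23.6, 26.5 and 25.4 CPM in wild-type and 45.1, 43.1, 41.2 and 46 CPM in ko libraries at 48 h. By 72 h the groups overlapped at 80.5, 83.7, 85.1 and 90.1 CPM against 98.9, 96.5, 80.2 and 81.3 CPM. Its effect went from 0.75 to 0.07 (interaction -0.68, SE 0.11). Gzmd went from 1.11 to 0.07 (interaction -1.05) and Gzme from 1.17 to 0.01 (interaction -1.17); the sequences of granzymes D to G are alike, so reads may be shared among them. Gzmb and Prf1, the granzyme and the perforin at the centre of killing, did not pass (0.06, SE 0.09 and 0.39, SE 0.13, edgeR adjusted p = 0.0857). Prf1 did pass in DESeq2 (adjusted p = 0.0477), with no filter (edgeR adjusted p = 0.0109) and without ko_72h_3 (edgeR adjusted p = 0.00323).

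Prdm1, which encodes Blimp-1, a regulator of terminal effector cells, also had an effect that shrank. It had 7.27 ± 0.929 CPM in wild-type and 13.8 ± 1.84 in ko cells at 48 h, and 27.3 ± 3.66 against 33.3 ± 2.2 CPM at 72 h (SD, n = 4 each; interaction -0.64, SE 0.15). Summed markers of NK and gamma delta T cells, which also carry granzymes, were 164 to 217 CPM in ko against 127 to 148 in wild-type libraries at 48 h, and 463 to 592 against 332 to 478 at 72 h. Of these 18 markers 1 passed for the interaction, Gpr55 (0.86), a share of 5.56% against 5.61% of all tested genes. Ncr1, which marks NK cells, stayed at or under 0.595 CPM, and was 1 of 3 of the 18 under 1 CPM in every library. Klrb1c, Klre1 and Tyrobp of the same list reached 7.76, 20.7 and 3.31 CPM. The part of such cells in the granzyme values was not tested, and in bulk RNA more cells of a type and more RNA per cell cannot be told apart. No tested marker of macrophages (3), dendritic cells (9), B cells (6) or CD4 and regulatory T cells (6) passed in edgeR at the adjusted threshold. As 5.61% of all tested genes passed, the lack of calls among so few markers says little. The dendritic cell list includes Batf3 itself.

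On the list of DNA replication and S phase genes, 12 of 33 tested genes had a called interaction below 0 and 0 above. The called share was 36.4%, against 5.61% of all tested genes, and the median effect went from -0.05 to -0.24. Orc1, a subunit of the origin recognition complex (ENSMUSG00000028587, chr4:108579423-108614833), had 61.7, 63.4, 60.1 and 60.5 CPM in wild-type and 54.7, 53.4, 54.3 and 50.3 CPM in ko libraries at 48 h. By 72 h it had 22.6, 23.6, 25.7 and 27.7 CPM against 15.3, 13.2, 14.1 and 12.7 CPM. The groups did not overlap at either time, though the 48 h effect did not pass over all genes (-0.21, edgeR adjusted p = 0.0683). The interaction was -0.64 (SE 0.10, edgeR adjusted p = 0.00052).

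Cdc6, which loads the replicative helicase with ORC, had an interaction of -0.67 (SE 0.14), and the helicase subunits Mcm2, Mcm3 and Mcm6 had -0.49, -0.44 and -0.27. Rrm2 and Rrm1, the ribonucleotide reductase subunits that make deoxynucleotides, had -0.58 and -0.29. Mcm4, Mcm5, Mcm7 and Pcna did not pass. The count below 0 was 19 with library-size scaling, 6 without wt_48h_1, ko_48h_3 or ko_72h_3, and 7 without wt_48h_4 or ko_72h_2. Among 29 G2 and mitosis genes (24.1% called, against 5.61% of all tested genes) 6 were below 0, from Plk1 (-0.44) to Aurkb (-0.26). The centromere histone Cenpa was the 1 above (0.32). That count below 0 was 1 without ko_48h_3, wt_72h_3 or ko_72h_3, 2 without wt_48h_1 or wt_48h_4 or ko_72h_2, 3 without ko_72h_1, and 14 with library-size scaling.

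Of 25 cholesterol synthesis genes 7 had a called interaction below 0, and of 11 fatty acid synthesis genes 5, with 0 above in both. The called shares were 28% and 45.5%, against 5.61% of all tested genes. Acat2, acetyl-CoA acetyltransferase, went from 0.01 to -0.53 (interaction -0.55, SE 0.08, edgeR adjusted p = 0.00039). Acly, which makes cytosolic acetyl-CoA, went from -0.12 to -0.54 (interaction -0.42, SE 0.09, edgeR adjusted p = 0.00669). Both kept their calls in all 25 alternatives to the main test other than the test against 1.5-fold. Dhcr7 (-0.44) lost its call in 8 of them, and the desaturases Fads2 (-0.40) and Fads1 (-0.37) in 9 and 8.

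Both lipid counts changed when different single libraries were left out, and why was not tested. The cholesterol count was 1 without wt_48h_1, ko_48h_2 or ko_48h_3, wt_72h_3, or ko_72h_2 or ko_72h_3. It was 2 without wt_48h_4, 3 without wt_48h_3 or ko_72h_1, 3 with exon length offsets and 14 with library-size scaling. The fatty acid count was 1 without ko_72h_3, 2 without wt_48h_1 or wt_48h_4, ko_48h_3, wt_72h_3 or ko_72h_1, and 3 without wt_48h_3, ko_48h_2, wt_72h_1 or ko_72h_2.

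Called interactions on the glycolysis list were above 0. Of 21 tested entries (20 symbols, Aldoa having a second identifier at a low level) 4 had a called interaction above 0 and 0 below. The called share was 19%, against 5.61% of all tested genes, and the median effect went from 0.00 to 0.18. Eno3, an enolase, and Slc2a6, a hexose transporter, were not on the list and had called interactions below 0 (-0.57 and -1.62). Pgk1, phosphoglycerate kinase (ENSMUSG00000062070, chrX:106187100-106203699), had 1919, 1923, 1990.4 and 2073 CPM in wild-type and 2050.0, 2055, 1919 and 1679 CPM in ko libraries at 48 h. Values at 72 h were 2876, 2966, 2772 and 3017 CPM against 4264, 3900.4, 4132 and 3722 CPM. Wild-type cells rose by 0.56 and ko cells by 1.06, and the groups overlapped at 48 h and not at 72 h (interaction 0.50, SE 0.09, edgeR adjusted p = 0.00237).

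Gapdh, the enzyme before it in the pathway, went from 4573 ± 201 against 4469 ± 305 CPM in wild-type and ko cells at 48 h to 5334 ± 181 against 7189.7 ± 298 at 72 h (SD, n = 4 each; interaction 0.46, SE 0.09). Aldoa (0.42) and Tpi1 (0.36) completed the 4. Ldha, Pkm, Hk2 and the transporters Slc2a1 and Slc2a3 did not pass. Without ko_48h_4 the count was 7. With library-size scaling, which moves the split of all calls, Pgk1, Gapdh and Aldoa kept their calls at 0.41, 0.37 and 0.32.

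**Figure D5:**
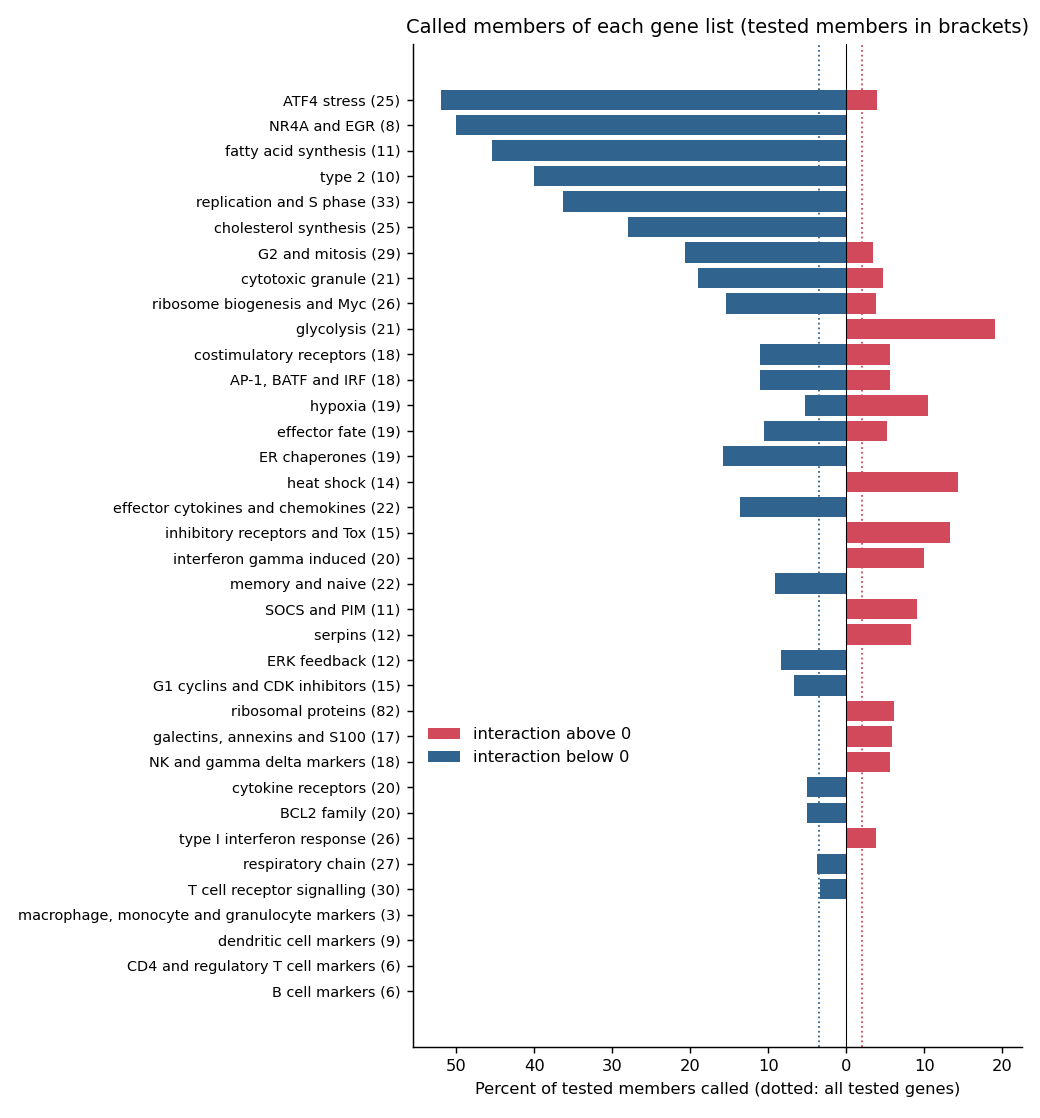
Percent of tested members of each gene list with a called interaction above 0 (right) or below 0 (left), number tested in brackets; dotted lines mark all tested genes (2.08% above, 3.53% below). ATF4, NR4A and EGR, lipid, type 2 and replication lists extend to the left, and glycolysis and heat shock to the right.

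The metallothioneins Mt1 and Mt2, small proteins that bind zinc and copper, had called interactions above 0. Mt1 (ENSMUSG00000031765, chr8:94179082-94180327) had 30.4, 34.1, 38.5 and 34.2 CPM in wild-type and 28.6, 34.8, 33 and 19.9 CPM in ko libraries at 48 h. By 72 h it had 125, 115, 116 and 98.3 CPM against 213, 224, 211 and 186 CPM, without overlap. The effect went from -0.24 to 0.88 (interaction 1.11, SE 0.17, edgeR adjusted p = 0.00078). Mt2, its neighbour, went from 2.91 ± 0.871 against 1.92 ± 0.631 CPM to 18.6 ± 0.627 against 37.9 ± 3.46 CPM (wild type and ko, SD, n = 4 each; interaction 1.62, SE 0.24). Fam241a, a gene of little-known function, had 24.8 ± 2.5 against 26.8 ± 2.23 CPM at 48 h and 29.9 ± 4.61 against 80.2 ± 11.4 CPM at 72 h (SD, n = 4 each; interaction 1.31, SE 0.15).

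Serpinb1a, an inhibitor of neutrophil-type serine proteases (ENSMUSG00000044734, chr13:32842092-32851185), had the largest growing effect among the named genes. Wild-type libraries held 1.43, 1.25, 1.73 and 1.33 CPM at 48 h and 3.18, 3.25, 1.69 and 2.7 CPM at 72 h. The ko libraries held 3.54, 3.05, 3.13 and 2.96 CPM and then 29.2, 31.1, 30.5 and 28.3 CPM, above every wild-type library at the same time. The effect grew from 1.14 to 3.45 (interaction 2.32, SE 0.22, edgeR adjusted p = 1.91e-06). Of 12 tested serpins it was the 1 called.

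Socs3, a brake on cytokine receptor signalling (ENSMUSG00000053113, chr11:117966079-117970047), fell with time in wild-type cells and rose in ko cells. It had 37.5, 28.6, 29.5 and 37.8 CPM in wild-type and 50.5, 42.8, 38.4 and 55.5 CPM in ko libraries at 48 h. At 72 h it had 27.1, 26.6, 20.8 and 20 CPM against 66.7, 76.3, 54.2 and 60.3 CPM. The genotypes did not overlap at either time, and the effect grew from 0.49 to 1.45 (interaction 0.96, SE 0.19, edgeR adjusted p = 0.00495). Socs3 stayed in the growing class in 18 of 25 alternatives, and in the others its effect appeared instead. It was the 1 called gene of 11 in the SOCS and PIM list.

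Cxcr6, a chemokine receptor of tissue-resident T cells, had 8.29 ± 0.453 against 9.15 ± 0.956 CPM in wild-type and ko cells at 48 h and 26 ± 3.56 against 52 ± 3.49 CPM at 72 h (SD, n = 4 each; interaction 0.85, SE 0.13). St3gal1, a sialyltransferase, went from -0.24 to -1.01 (interaction -0.77). Eomes, a T-box factor of memory and effector cells, had 48.7 ± 2.6 against 49.2 ± 4.59 CPM at 48 h and 49 ± 3.6 against 35.7 ± 2.06 CPM at 72 h (SD, n = 4 each; interaction -0.47, SE 0.10). Il7r, the IL-7 receptor chain, rose with time in both genotypes, to 164 ± 9.94 CPM in wild-type and 141 ± 5.21 in ko cells (SD, n = 4 each). Its effect went from 0.25, which did not pass, to -0.22 (interaction -0.48, SE 0.12), and the call was lost without ko_48h_2 (edgeR adjusted p = 0.0567). The interactions of Tcf7 (-0.09, SE 0.13), Tbx21 (-0.27, SE 0.11), Klf2 (0.23, SE 0.23), Myc (-0.14, SE 0.11) and Bcl2l11 (-0.04, SE 0.14) did not pass.

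Of 14 heat shock genes 2 (14.3%, against 5.61% of all tested genes) had a called interaction, both above 0. The co-chaperone Dnajb1 went from 0.04 to 0.66 and Hspa8, the constitutive HSP70, from -0.21 to 0.20. Of 82 ribosomal protein genes 5 had a called interaction, all above 0, a share of 6.1%, near the 5.61% of all genes. Still, their median interaction was 0.19, and their median effect went from 0.16 at 48 h to 0.41 at 72 h. Their share of all counts at 48 h was 11.77% to 13.64% in ko libraries and 10.87% to 12.03% in wild-type libraries, with overlap. At 72 h that share was 17.3% to 18.2% against 14.0% to 15.2%, without overlap. The count of ribosomal protein calls above 0 ran from 0 to 18 over the 25 alternatives other than the test against 1.5-fold. Of 26 ribosome biogenesis and Myc target genes 4 were below 0, with Bop1 at -0.57 (SE 0.12), and 1, Npm1, above (0.46, SE 0.11). The count below 0 ran from 1 to 9.

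In 8 genes both effects passed with opposite signs. Gbp2, an interferon-induced GTPase that attacks the vacuoles of parasites (ENSMUSG00000028270, chr3:142620602-142638008), had 92.4, 106, 86.7 and 80.5 CPM in wild-type and 64.3, 77.1, 75.6 and 60.2 CPM in ko libraries at 48 h. At 72 h wild-type libraries had fallen to 50.8, 53.3, 49.5 and 48.2 CPM, and ko libraries had 66.6, 61.1, 71.4 and 67.5 CPM, a time change that did not pass. The ko libraries were all lower at 48 h and all higher at 72 h. The effect went from -0.40 (SE 0.08) to 0.40 (SE 0.08), an interaction of 0.80 (SE 0.12, edgeR adjusted p = 0.000334). Of 20 tested interferon gamma induced genes 1 other passed, Igtp (0.27, lost in 16 of 25 alternatives), and Irf1, Gbp3 and Gbp5 did not.

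Pimreg, a mitotic regulator gene (ENSMUSG00000020808, chr11:72042032-72047370), turned the other way. It had 16.8, 17.3, 18.2 and 17.9 CPM in wild-type and 24.1, 25, 25 and 23.2 CPM in ko libraries at 48 h, without overlap. At 72 h it had 30.4, 28.1, 32.5 and 34.2 CPM against 23.6, 24, 28.8 and 26.7 CPM, with slight overlap. The effect went from 0.47 to -0.28 (interaction -0.75, SE 0.11, edgeR adjusted p = 0.000325). Jdp2, a leucine zipper repressor that pairs with JUN, went from 8.78 ± 1.25 against 11.9 ± 1.51 CPM to 29.3 ± 3.63 against 20.5 ± 2.04 CPM (wild type and ko, SD, n = 4 each; interaction -0.95, SE 0.16). For Jdp2 the libraries overlapped at 48 h, with wild type up to 10.3 and ko down to 9.93 CPM, and not at 72 h. Eno3, the muscle form of enolase, went from 105 ± 3.71 against 125 ± 5.55 CPM to 103 ± 4.38 against 82.8 ± 3.28 CPM (interaction -0.57, SE 0.08).

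Gbp2 and Pimreg turned in all 25 alternatives that keep the test against no difference, Eno3 in 24 and Jdp2 in 21. The sorting of the other 4 was less steady. B4galnt1, a ganglioside synthase (0.22 to -0.25), turned in 18, and Stambpl1, a deubiquitinase (-0.24 to 0.20), in 12. Syt5, a synaptotagmin at 0.0306 to 2.90 CPM (-1.52 to 0.94), and the non-coding Gm26917 (-1.06 to 0.66) turned in 19 each. Wild-type libraries at 48 h ranged from 237 to 540.3 CPM for Gm26917.

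The 10 genes lower in ko cells at 48 h with a shrinking effect had a median interaction of 0.42, and it reached 2-fold in 2. The 5 named by the rule, Hipk2, Nat9, Emilin2, Atp11b and Nudcd3, lost their calls in 2 to 12 of 25 alternatives. On the growing side the calls of Sat1, a polyamine acetyltransferase, and Gngt2 were lost in 12 and 2. Sat1 stayed in the growing class in 10 of 25 and Gngt2 in 19. The call of AA467197 (0.96 to 1.90; interaction 0.94, SE 0.18) was kept in all 25, as was that of Sdcbp2, a syntenin relative whose rise appeared at 72 h (0.19 to 1.27; interaction 1.08, SE 0.16). Nt5e, the ectoenzyme CD73 (0.89), and Bmf, a BH3-only death gene whose effect shrank, were each lost in 7. The mitochondrial gene mt-Nd3 (0.50 to -0.22) may share reads with the called pseudogene Gm28438.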

How the data were processed

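The deposited values were whole-number read counts per gene for 55335 gene identifiers in 16 libraries, not normalized by the authors. Per the submitters' processing notes reads were handled with STAR 2.7 and featureCounts after bcl2fastq 2.2.0, on GRCm38; per the labels' protocols the libraries were stranded poly-A libraries from 100 ng of RNA. The sources used here do not give the annotation release, the strand setting or how multi-mapping reads were treated, so overlapping, antisense and near-identical genes are uncertain. Positions and exon lengths came from GENCODE M21 (55154 identifiers found).

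All libraries entered 1 fit of 4 group means in edgeR 4.0.16 under R 4.3.3 (TMM scaling; filterByExpr, min.count 10; two-sided quasi-likelihood F test with robust dispersions), with Benjamini-Hochberg adjustment over 15197 genes and a threshold of 0.05. A standard error is the log2 fold change divided by the square root of F. A prior count of 2 entered the log2 CPM behind the library deviations and the length offsets. The fitted fold changes did not use it and kept the edgeR default. The median biological coefficient of variation was 9.68%. Counts of every pair of libraries of 1 group differed by more than sampling noise. The limit that a count of 0 allows, 3 counts, was 0.0765 to 0.102 CPM.

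A gene appears where only the 72 h effect passed, grows or shrinks where both passed with one sign or where only the 48 h effect passed (shrinks), and turns where both passed with opposite signs. Named were the 5 largest interactions per class and direction at an average log2 CPM of 3 or more (1 or more for turning genes), leaving out receptor segments, pseudogenes and clone-named models, then up to 3 called members of each of 36 lists, plus T cell genes named whatever their result. Some genes the rule names are not reported here. Other list members, Syt5 and Gm26917 were named after their values were seen. The members and lists were chosen with earlier results of these data known.

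Alternatives were library-size and median-ratio scaling, DESeq2 1.42.0, limma-voom (limma 3.58.1), other filters, a replicate block, a test against 1.5-fold, exon length offsets, fits without each library and without both that stand apart, a threshold of 0.01 and sorting by estimates. On counts simulated for the interaction over 14936 genes, 63 of 100 interactions of 1.5-fold (63%) and 94 of 100 of 2-fold (94%) were recovered by edgeR, and 9 of its 166 calls (5.42%) were unchanged genes. DESeq2 had 22 of 193 (11.4%).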

Additional observations from a re-analysis of the deposited data

Results flagged for a closer look

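In 244 groups of 4 values looked at, 11 held 1 library whose gap to its nearest neighbour was more than 0.829 of the group's range; chance flags about 1 in 20 groups. Of these, 3 were ko_72h_4: Mt2 at 32.7 CPM against 39.4 to 40.0 in the others, Nr4a3 at 50.3 CPM against 43.4 to 44.5, and Jdp2 at 23.6 CPM against 19.3 to 19.7. Another 3 were ko_72h_3: mt-Nd3 at 78.4 CPM against 88.4 to 89.5, Batf3 at 0.389 CPM against 0 in the others, and the ribosomal protein share at 18.2% against 17.3% to 17.5%. Emilin2 stood at 76.9 CPM in ko_72h_2 against 70.8 to 71.6. At 48 h Egr3 was low in ko replicate 1 (17.6 CPM against 21.6 to 22.4), Gzme was low in ko replicate 4 (5.81 CPM against 7.57 to 7.92) and Tcf7 was high in wild-type replicate 1 (177 CPM against 166 to 168). Cd8a stood at 340.5 CPM in wt_72h_3 against 329.7 to 330.2.

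The genotype effect passed with opposite signs at the 2 times in 8 genes, with interactions of 0.80 for Gbp2, 2.46 for Syt5, 1.72 for Gm26917, 0.44 for Stambpl1, -0.95 for Jdp2, -0.75 for Pimreg, -0.57 for Eno3 and -0.47 for B4galnt1 on the log2 scale, each past the edgeR threshold.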

How the results depend on the processing

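Of 95 named genes with a called interaction, 59 kept call and direction in all 25 alternatives other than the test against 1.5-fold, and none changed sign in any. The fits share libraries with the main one, so a kept sign says little. Interactions above and below 0 (316 and 537) numbered 183 and 1231 with library-size scaling, which shifts the median interaction of all genes by -0.0918, 563 above in DESeq2, 5 and 10 in the test against 1.5-fold and 107 and 174 at a threshold of 0.01. Appearing, growing, shrinking, turning and unsorted genes (731, 52, 38, 8 and 24) numbered 11, 4, 0, 0 and 0 against 1.5-fold and 253, 10, 13, 3 and 2 at 0.01. With library-size scaling 1203 appeared, 107 grew and 19 turned. DESeq2 gave 119 growing, 86 shrinking, 20 turning and 39 unsorted, and no filter gave 106, 90, 26 and 38. Without both libraries that stand apart 169 grew, 95 shrank, 24 turned and 15 were unsorted; with median-ratio scaling 14 were unsorted. By estimates alone 408 appeared, 226 grew, 18 shrank and 201 turned. Exon length offsets gave 435 above and 562 below 0. The causes were not tested. Leaving out 1 library at a time gave 158 to 407 genes above and 233 to 649 below 0, 384 to 880 appearing, 21 to 99 growing, 18 to 71 shrinking, 4 to 25 turning and 2 to 26 unsorted. With the replicate block 280 genes were above and 429 below 0, and 9 were unsorted. Same-numbered libraries did not pair: 9 of 24 pairs had a correlation of deviations above 0.1, and 2 of 16 libraries correlated best with their own number.

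The sign changed in genes whose interaction was not called: Batf3 stood at -0.51 in limma-voom and -3.76 without ko_72h_3, Gzmb at -0.027 with library-size scaling, and Bcl2l11 at 0.0084 with exon length offsets, 0.015 without wt_48h_3 and 0.039 without wt_72h_1. Leaving out single libraries, Batf3 ran from -3.76 to 1.29 and Bcl2l11 from -0.14 to 0.039. Depth limits genes near 0.1 CPM, such as Syt5 in ko cells at 48 h.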
